A study of Mus musculus with 4 samples.

Results

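Endothelial identity genes are the genes by which the cells lining blood vessels are recognised, and 10 of them were followed here: Pecam1, Cdh5, Egfl7, Emcn, Esam, Cldn5, Sox17, Sox18, Ramp2 and Calcrl. They were chosen by symbol, and every probe set that the platform annotation pairs with one of these symbols was taken, which gave 10 of the 18194 genes named on the arrays. The 10 genes had 19 probe sets, 18 on the MOE430A array and 1 on the MOE430B array. Of these, 17 named 1 member alone, and 2 named Ramp2 together with Vps25, which is the next protein-coding gene beside Ramp2 in the RefSeq annotation.

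The series compared fetal lung of Myf5-/-:MyoD-/- embryos (labelled BALB/c Myf5:Myod null) with lung of wild type BALB/c embryos, all at E18.5. Myf5 and Myod1 encode transcription factors without which skeletal muscle does not form, and the title of the series asks what skeletal muscle does for the developing lung. There was 1 array for each genotype on each of the 2 Affymetrix designs, so 4 arrays in all and no replicate. The genotypes could not be tested against each other, there are no p-values, and the number of arrays sets the precision. The labels give the null alleles for the embryo and name no Cre or promoter that would restrict the loss to 1 tissue, nor do they say whether RNA was pooled over embryos. The arrays are called dKO-labelled and WT-labelled below.

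Endothelial cells line every vessel of the lung, and near birth the capillaries press against the thinning epithelium to form the surface for gas exchange. The members hold different posts in these cells. Cdh5, Pecam1, Esam and Cldn5 seal or mark the contacts between neighbouring cells. Emcn coats the luminal surface, and Egfl7 is secreted into the matrix around the vessel. Sox17 and Sox18 are transcription factors of the SoxF group, and Calcrl with Ramp2 forms the receptor for adrenomedullin.

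The arrays and labels were examined first. All values are MAS5 signals on a linear scale, with the double knockout array divided by 1 factor per design (1.004 on MOE430A). A probe set was kept when at least 1 of its signals reached its design's median, 791.5 on MOE430A and 862.2 on MOE430B. The Myf5 probe set read 8.95 in the dKO-labelled array and 110.5 in the WT-labelled array, both under the floor of 285.5, so no fold can be given. Myod1 disagreed with the labels on MOE430A, where its probe set read 1081 in the dKO-labelled array and 85.0 in the WT-labelled array. The Myod1 probe set on MOE430B, below the filter, also read higher in the dKO-labelled array, with 607.2 there and 337.2 in the WT-labelled array. Every direction below therefore rests on the labels. The labels do not place these probe sets within or outside the deletions, and one outside would check nothing. On MOE430A the 18S ribosomal RNA controls had a median ratio of 3.91 between the dKO-labelled and the WT-labelled array. The ratio of 3' to 5' signal of the Gapdh control on that design was 0.845 in the dKO-labelled array and 0.788 in the WT-labelled array. The beta-actin controls of MOE430A were 1.18 to 1.23 times as high in the dKO-labelled array, and the Gapdh controls 1.06 to 1.18 times. On MOE430B these ratios ran from 0.997 to 1.05 and from 0.908 to 1.03. The dimmer controls on MOE430A ran from 0.788 to 0.997 for pyruvate carboxylase and from 0.782 to 1.34 for the transferrin receptor. A log2 ratio of 0.22, as for Ramp2 below, is 1.17-fold. Whether the members share the actin and Gapdh excess was not tested.

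There being no replicates, the error of a single log2 ratio was taken from 100 probe sets present on each design, and its SD was 0.24. This SD covers technical noise between the designs and holds no variation between embryos, nor does any spread given below. Of those 100, 0 read a member. Different probe sets of a gene on MOE430A spread more, with an SD of 0.37 over 2479 genes. The ratios of the shared probe sets averaged 0.00 on MOE430A and -0.21 on MOE430B, so an array pair can carry an offset about as large as most member ratios. The SD of 0.24 is taken about the mean difference and leaves this offset out. It also takes the error as equal on both designs, although the shared probe sets read a median of 3.95 times as high on MOE430B. All members are represented on MOE430A. Of the genes named below, Adm, Erg, Krit1, Mmrn1, Slc6a2 and Prox1 are represented on MOE430B.

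The 10 genes were well measured in both genotypes. All 10 genes had a probe set past the filter on MOE430A, and 16 of the 17 probe sets that name 1 member passed. In 15 of those 16, the signals of both arrays were at or above the filter. The exception was 1 of the 4 Egfl7 probe sets, which passed through the dKO-labelled array. Of the 16 passing probe sets, 13 had a log2 ratio above 0, against 49.6% of the MOE430A probe sets of a single gene. Probe sets of the same gene are not independent, and the 13 include all 4 of Egfl7, with that exception among them. The probe set that did not pass reads Calcrl on MOE430B, with signals of 501.1 in the dKO-labelled array and 583.5 in the WT-labelled array.

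**Figure D1:**
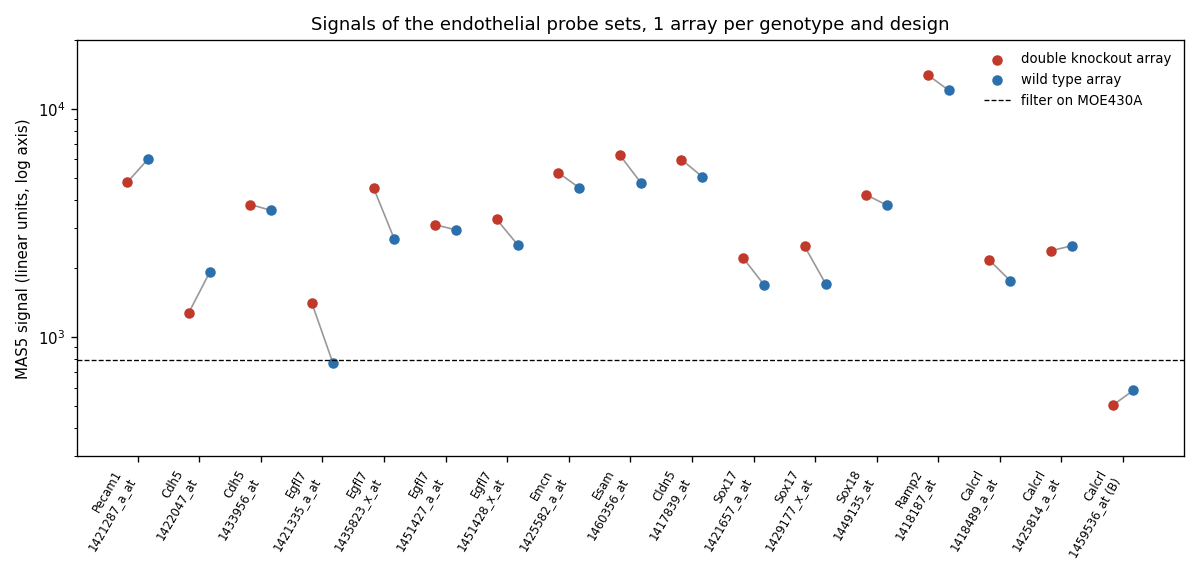
MAS5 signal (log axis) of each probe set that names 1 member, with the dKO-labelled array on the left of each pair and the WT-labelled array on the right. The dashed line is the filter of 791.5 on MOE430A. Most pairs lie well above it and differ little, and (B) marks the Calcrl probe set of MOE430B.

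Taken by 1 probe set per gene, 8 of the 10 genes read higher in the dKO-labelled array, against 49.3% of all 12530 genes measured. The median log2 ratio of the 10 genes was 0.22, and that of all genes measured was -0.01. The values ran from -0.34 for Pecam1 to 0.75 for Egfl7. Only Egfl7 was at least 1.5-fold higher, where 9.38% of all genes were, and none was at least 1.5-fold lower, where 9.42% were. None reached 2-fold in either direction, against 3.88% of all genes higher and 3.64% lower. Of the 10 ratios, 5 lay within 0.24 of 0, the SD of a single ratio. Among the 5071 probe sets of MOE430A with a mean signal at or above 1842, as bright as those that represent the 10 genes, 3.33% were at least 1.5-fold higher, 3.51% at least 1.5-fold lower and 51.5% above 0, and the middle 50% of ratios ran from -0.17 to 0.21. By that yardstick 6 of the 10 genes lay above the upper end and Pecam1 below the lower end. Egfl7 was the only member outside the central 95%, which ran from -0.65 to 0.64. In whole lung, a change in the number of endothelial cells and a change in RNA per cell cannot be told apart.

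**Figure D2:**
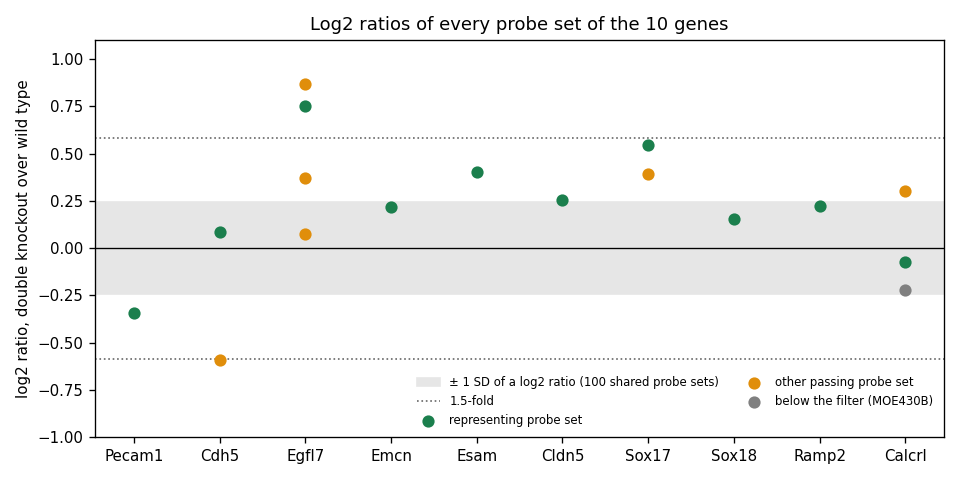
Log2 ratio of double knockout over wild type for every probe set that names 1 member. Green points are the probe sets that represent the genes, orange points other passing probe sets, the grey band is ± 1 SD of a single ratio (0.24) and dotted lines mark 1.5-fold. The points of Egfl7 and Sox17 all lie above 0, while those of Cdh5 and Calcrl lie on both sides.

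The genes of cell contacts did not share a direction. Pecam1, the adhesion molecule CD31 of endothelial junctions that platelets and white blood cells also carry, read 4759 in the dKO-labelled array and 6031 in the WT-labelled array. Its log2 ratio of -0.34 (1.27-fold lower) was the lowest among the genes, and it rests on a single probe set. Cdh5 encodes VE-cadherin, the cadherin of endothelial adherens junctions. Its brighter probe set read 3807 in the dKO-labelled array and 3585 in the WT-labelled array, a log2 ratio of 0.09. Its dimmer probe set read 1277 in the dKO-labelled array and 1921 in the WT-labelled array, a log2 ratio of -0.59. The probe sets of Cdh5 therefore differed by 0.68 in log2 ratio, which is more than the ratio of either. The dimmer one was the only member probe set at least 1.5-fold lower, where 7.16% of the MOE430A probe sets of a single gene were.

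Esam and Cldn5 were both somewhat higher. Esam, an immunoglobulin-like adhesion molecule of endothelial tight junctions and platelets, read 6267 in the dKO-labelled array and 4747 in the WT-labelled array, a log2 ratio of 0.40 (1.32-fold). Cldn5, the claudin of endothelial tight junctions, read 5995 in the dKO-labelled array and 5032 in the WT-labelled array, a log2 ratio of 0.25 (1.19-fold). Emcn, the sialomucin endomucin of capillary and venous endothelium, read 5249 in the dKO-labelled array and 4510 in the WT-labelled array, a log2 ratio of 0.22. The ratio of Esam was larger than the SD between probe sets of a gene (0.37), and those of Cldn5 and Emcn were smaller.

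Egfl7, a secreted protein that endothelial cells deposit in the vessel matrix, had the highest ratios. It is also the host of a microRNA of endothelial cells, miR-126, which in mouse lies inside the span of Egfl7 in the RefSeq annotation. The mature sequence is shown because the host transcript carries it, and the arrays read no microRNA. It lies at chr2:26591402-26591423 on the plus strand (RefSeq, GRCm38.p6), and capitals mark the seed, bases 2 to 8.
mmu-miR-126a-3p: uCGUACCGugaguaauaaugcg

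Each of the 4 Egfl7 probe sets read higher in the dKO-labelled array, by unequal amounts. The brightest read 4511 in the dKO-labelled array and 2675 in the WT-labelled array, a log2 ratio of 0.75 (1.69-fold). The dimmest read 1404 in the dKO-labelled array and 768.6 in the WT-labelled array, a log2 ratio of 0.87, with the lower signal just under the filter. The remaining pair shares an accession in the annotation and gave unequal values. One read 3275 in the dKO-labelled array and 2537 in the WT-labelled array, a log2 ratio of 0.37. The other read 3105 in the dKO-labelled array and 2947 in the WT-labelled array, a log2 ratio of 0.08. Thus 2 of the 4 probe sets passed 1.5-fold, where 6.37% of the MOE430A probe sets of a single gene did, and the size of the Egfl7 difference depends on the probe set. The brightest carries the suffix _x_at, by which Affymetrix marks probes that may bind other transcripts, and without such probe sets Egfl7 was represented by the one at 0.08.

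Egfl7 has 3 annotated transcription starts in the RefSeq table, and the 250 bases before each are shown because its transcripts differ at the 5' end while these arrays read the 3' end, so that the starts cannot be told apart here. Capitals mark AGGAAG, a core of the sites bound by ETS factors of endothelial cells, or its reverse complement CTTCCT, and ACAAT, a core of SOX sites, or its reverse complement ATTGT. The windows lie on the plus strand at chr2:26580833-26581082, chr2:26583615-26583864 and chr2:26586386-26586635 (RefSeq, GRCm38.p6).
Egfl7 start 1: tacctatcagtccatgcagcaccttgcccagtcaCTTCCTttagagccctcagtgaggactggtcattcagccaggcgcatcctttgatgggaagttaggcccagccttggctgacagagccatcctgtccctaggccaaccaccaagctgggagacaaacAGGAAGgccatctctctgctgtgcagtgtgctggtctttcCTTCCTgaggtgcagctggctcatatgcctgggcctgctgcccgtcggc
Egfl7 start 2: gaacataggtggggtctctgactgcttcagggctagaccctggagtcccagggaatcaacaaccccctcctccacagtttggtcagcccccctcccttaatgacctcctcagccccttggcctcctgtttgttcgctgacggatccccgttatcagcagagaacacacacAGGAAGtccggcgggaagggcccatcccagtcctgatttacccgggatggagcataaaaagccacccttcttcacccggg
Egfl7 start 3: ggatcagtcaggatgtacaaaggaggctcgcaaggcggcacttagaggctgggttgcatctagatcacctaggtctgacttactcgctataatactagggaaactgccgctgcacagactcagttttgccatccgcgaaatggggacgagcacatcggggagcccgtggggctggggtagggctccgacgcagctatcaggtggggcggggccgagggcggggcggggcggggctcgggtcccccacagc

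The first window holds AGGAAG or its complement 3 times, the second 1 time and the third 0 times. No ACAAT was found in them. Of all 32851 such windows in the table, 29.5% hold AGGAAG on either strand and 27.7% hold ACAAT. These matches are letters only and show no binding.

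The SoxF transcription factors both read higher in the dKO-labelled array. Sox17, which acts in arterial endothelium, was read by a pair of probe sets that gave close values. One, which carries the suffix _x_at as the brightest of Egfl7 does, read 2496 in the dKO-labelled array and 1713 in the WT-labelled array. Its log2 ratio was 0.54 (1.46-fold). The other read 2222 in the dKO-labelled array and 1693 in the WT-labelled array, a log2 ratio of 0.39. With 0.15 between them, the probe sets of Sox17 differed least among the 4 genes that had several. Sox17 is also made in airway epithelium and other endoderm derivatives, whose share in these signals was not tested. Sox18, a factor of blood and lymphatic vessels, read 4199 in the dKO-labelled array and 3775 in the WT-labelled array. Its log2 ratio of 0.15 lay within the SD of a single ratio. Sox7, the remaining SoxF gene, read 2278 in the dKO-labelled array and 1863 in the WT-labelled array, a log2 ratio of 0.29.

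Calcrl and Ramp2, which pair as the adrenomedullin receptor, had small ratios. Ramp2, the subunit that carries the receptor to the surface and gives it its preference for adrenomedullin, read 14076 in the dKO-labelled array and 12064 in the WT-labelled array, a log2 ratio of 0.22. The probe sets that name both Ramp2 and Vps25 had log2 ratios of 0.06 and -0.04, and are counted for neither gene. Calcrl, the seven-transmembrane subunit, had 1 probe set with 2387 in the dKO-labelled array and 2511 in the WT-labelled array, a log2 ratio of -0.07. Its other passing probe set read 2172 in the dKO-labelled array and 1761 in the WT-labelled array, a log2 ratio of 0.30. The Calcrl probe set below the filter on MOE430B had -0.22, so that the probe sets of Calcrl gave no direction.

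The windows before the starts of Calcrl and Emcn are shown because, of the 4 members matched in the promoter table, these are the genes whose window holds both motifs. They lie at chr2:84425267-84425516 on the minus strand and at chr3:137340828-137341077 on the plus strand (RefSeq, GRCm38.p6), with capitals as above.
Calcrl: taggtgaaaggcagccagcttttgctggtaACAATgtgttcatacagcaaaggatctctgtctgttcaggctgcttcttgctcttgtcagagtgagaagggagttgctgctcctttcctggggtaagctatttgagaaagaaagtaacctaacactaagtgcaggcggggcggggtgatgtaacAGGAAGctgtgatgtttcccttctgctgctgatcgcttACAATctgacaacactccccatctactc
Emcn: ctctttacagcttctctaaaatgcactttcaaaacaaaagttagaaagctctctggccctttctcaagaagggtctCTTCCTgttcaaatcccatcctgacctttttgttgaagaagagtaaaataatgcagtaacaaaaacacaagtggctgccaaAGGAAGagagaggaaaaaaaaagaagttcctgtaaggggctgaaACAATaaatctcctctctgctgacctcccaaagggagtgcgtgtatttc

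The Calcrl window holds AGGAAG 1 time and ACAAT 2 times, and the Emcn window holds them 2 times and 1 time. Of the 6 member windows, 4 hold AGGAAG and 2 hold ACAAT on either strand, against 29.5% and 27.7% of all windows. Of the 6, 3 are of Egfl7, and by gene the counts are 3 and 2 of 4. The Cldn5 window holds neither, which says nothing about the factors. The motif AGATAA of GATA factors and the TATA box letters TATAAA were found in 0 of the 6 windows, against 9.99% and 12.4% of all windows.

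The partners of the adrenomedullin receptor gave a mixed picture. Of 10 genes listed for this pathway, 6 were measured, and 2 of these were higher. Ramp3, an alternative partner of Calcrl, read 1360 in the dKO-labelled array and 684.5 in the WT-labelled array, a log2 ratio of 0.99, and was the only gene of the list past 1.5-fold. Its lower signal was under the filter, and it was named after its values were seen. Gnas, the stimulatory G protein downstream of the receptor, had a log2 ratio of 0.44, with 0.44 to 1.65 over 3 probe sets. The ligand Adm, adrenomedullin itself, had -0.19 and Ramp1, the partner that turns Calcrl into a receptor for CGRP, had -0.22, with -0.22 to 0.51 over 3 probe sets.

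The partners of the junction proteins had ratios on both sides of 0. Of 21 measured genes that bind or signal from these junctions, 9 were higher, none at least 1.5-fold, and Cgnl1 alone was at least 1.5-fold lower (-0.59, with 0.62 at the other end of its 4 probe sets, named after its values were seen). The median log2 ratio was -0.10. The highest value was that of Ocln, the tight junction protein occludin, at 0.34, with -0.31 by its other probe set, also named after its values were seen. The highest among bright genes were Tjp1, the scaffold ZO-1 (0.11), and Krit1, a junction protein of the cerebral cavernous malformation complex (0.08 and -0.80 at the extremes of its probe sets). The lowest were Rap1b (-0.51, with -0.51 to -0.27 over 3 probe sets) and Rap1a (-0.42, and -0.02 by its other probe set), small GTPases that tighten VE-cadherin contacts. These genes are active in epithelium and other cells too, and the share of endothelium in their signals was not tested.

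A wider list of endothelial genes was centred near 0. Of 33 measured genes, 14 were higher, against 8 of the 10 members, and the median log2 ratio was -0.04. None was at least 1.5-fold higher. The difference between the lists was not tested. Rasip1, a Ras-interacting protein of vessel lumen formation, had 0.55 (3265 in the dKO-labelled array and 2222 in the WT-labelled array). Thbd, the thrombin receptor thrombomodulin, had 0.47. Lmo2, a transcription cofactor of blood and vessel cells, had -0.47. Cd93, a lectin-like receptor, had -0.46 by its brightest probe set, but -0.46 to 0.55 over 5. The 1 gene at least 2-fold lower was Flt1, a VEGF receptor, at -1.80 by a probe set with 298.9 in the dKO-labelled array and 1042 in the WT-labelled array, while its other probe set read 0.07. The Flt1 probe set at -1.80 passed the filter of 791.5 through the WT-labelled array alone. Its signal in the dKO-labelled array lay near the floor of 285.5. Flt1 was named after its values were seen.

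The transcription factors that drive endothelial genes were centred on 0. This list overlaps others, since Erg, Fli1, Lmo2, Klf2 and Sox7 are also in the wider list and Nr2f2 is in that of vessel kinds. Of 16 measured, 8 were higher, and their median log2 ratio was 0.00. The 1 gene past 1.5-fold was Nr2f2, the venous regulator COUP-TFII that lung mesenchyme also makes, at 0.70, with -0.06 to 0.70 over 3 probe sets. Klf4, a factor induced by flow, had -0.21, and 0.26 by its other probe set.

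**Figure D3:**
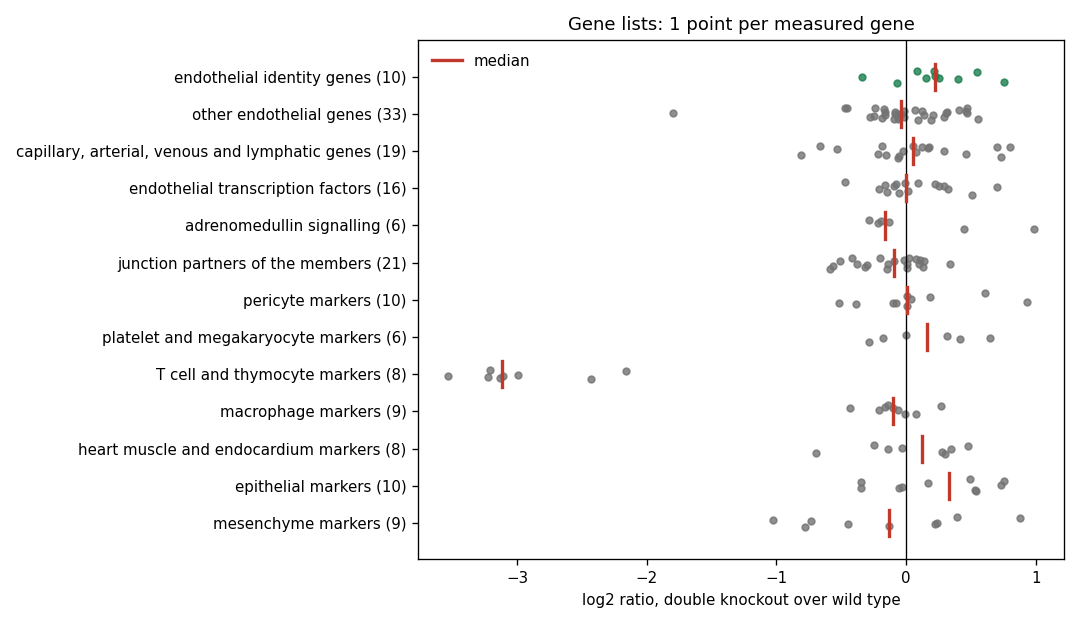
Log2 ratio of double knockout over wild type for each measured gene of each list, with the number of genes in brackets and the red bar at the median. The 10 endothelial identity genes have a median of 0.22, the 33 other endothelial genes -0.04, and the T cell and thymocyte markers lie far to the left with -3.12, where 4 of their 8 values are bounds set by the floor.

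Markers of other cell types moved between the same arrays, and their part in the endothelial values was not tested. The dKO-labelled array read all 8 measured T cell and thymocyte markers at least 2-fold lower, at 71.3 to 755.4, against 1279 to 6021 in the WT-labelled array. Their summed signal was 2480 in the dKO-labelled array and 24470 in the WT-labelled array. All 8 passed the filter of 791.5 through the WT-labelled array alone. A marker low in both arrays could not be counted, and of the 10 markers listed, Cd4 and Lck were not measured. Of the 8, 4 had a double knockout signal below the floor. White blood cells carry Pecam1, and their share in its signal was not tested. Ptprc, the CD45 antigen of those cells, read 308.1 in the dKO-labelled array, near the floor of 285.5, and 2874 in the WT-labelled array. Ptprc was named after its values were seen.

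Platelets and their precursors also make Pecam1 and Esam. Of 10 markers of platelets and megakaryocytes, 6 were measured and 4 of these were higher, with a summed signal over the 5 on MOE430A of 7544 in the dKO-labelled array and 7503 in the WT-labelled array. Pf4, the platelet chemokine, had a log2 ratio of -0.29. Macrophage markers had a median of -0.10 over 9 genes. Only 2 of the 9 were higher, Lyz2 at 0.27 and Csf1r at 0.07, and the rest were below 0.

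Heart muscle markers were strong in both arrays, and the share of heart vessels in the endothelial signals was not tested. The summed signal of the 6 heart muscle genes was 264904 in the dKO-labelled array and 234258 in the WT-labelled array, and 4 of them were higher, with a median log2 ratio of 0.29 that lay above the 0.22 of the members. Myl2, the ventricular myosin light chain, had 0.47 and Nppa, an atrial peptide, -0.70. Npr3, a receptor of endocardium, read 2486 in the dKO-labelled array and 2540 in the WT-labelled array, a log2 ratio of -0.03. Nfatc1, a transcription factor of endocardium, had -0.25, with -0.82 to 1.28 over 5 probe sets. With these 2 genes the median was 0.12 over 8. Epithelial markers had a median of 0.33 over 10 genes, higher than that of the members, with Cldn18, a claudin of alveolar epithelium, at 0.76 and Cdh1, the epithelial cadherin, at -0.35. Mesenchyme markers had a median of -0.13 over 9 genes, with Tcf21 at 0.88 and Lum at -1.03.

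**Figure D4:**
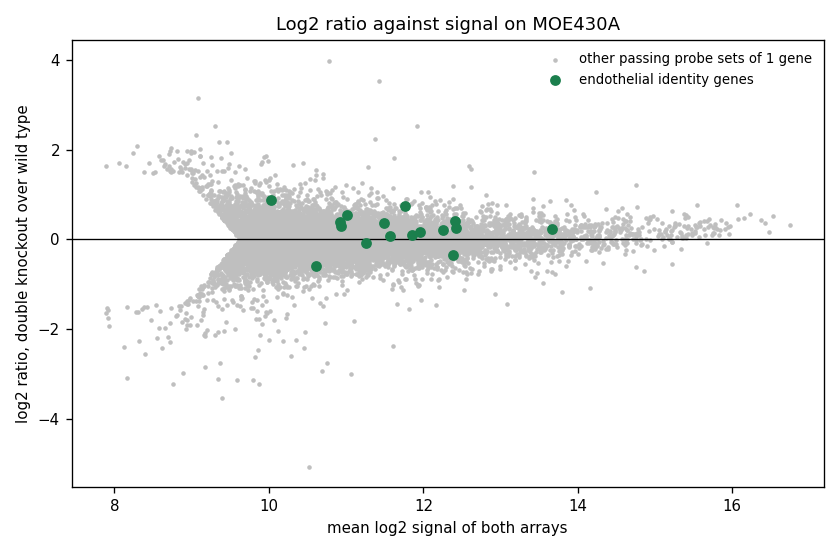
Log2 ratio of double knockout over wild type against the mean log2 signal of both arrays, for the 11198 passing MOE430A probe sets of a single gene. The 16 passing probe sets of the members (green) lie inside the grey cloud, between -0.59 and 0.87.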

How the data were processed

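RNA of E18.5 lung was hybridised to Affymetrix MOE430A and MOE430B arrays, 1 array per genotype and design. Each deposited value is a probe set's signal intensity on a linear scale. The submitters' processing notes name MAS5, without a version or detection calls. The 2% trimmed mean was 1500 on every array, so each was scaled on its own and ratios were formed within a design only.

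With python 3.11.15, the 64 controls of each design were removed, and the double knockout array was divided by 1 factor per design (1.004 and 1.008) so that the median ratio of passing probe sets was 1. A probe set passed when its higher signal reached the median of the design (12163 and 12830 passed). Signals under the 25th percentile (285.5 and 280.1) were set to that floor. A gene was represented by its brightest passing probe set on MOE430A, or on MOE430B where none passed. GEO's platform annotation gave the gene names, and 20351 and 14486 single-gene probe sets matched RefSeq (GRCm38.p6) by Entrez identifier. Coordinates from GEO's platform annotation are left out, since it names no genome build, and those printed above are from RefSeq. Of the 10 members, 4 matched the RefSeq promoter table.

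There is no test with 1 array per group. From each of the 12 other lists, names were taken among the 2 highest and 2 lowest genes with a mean signal at or above the 75th percentile. Other names were chosen after their values were seen. The members and lists were chosen with earlier results of these data known. The steps were run on simulated arrays with 200 planted changes per design, each past 2-fold, so ratios as small as those of the members were not tested. There were 12 alternatives of scaling, floor, filter, probe set and design.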

Additional observations from a re-analysis of the deposited data

How the results depend on the processing

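Over the 11 alternatives that gave the members a value, their median log2 ratio lay between 0.19 and 0.24, with 8 genes above 0 in each. Several of these were no check on the members. Both other floors, MOE430A alone and the brightest probe set of either design left every member ratio as it was. The deposited signals and the other filter settings moved all member ratios by the same amount. The 8 genes were not always the same, since the median over passing probe sets put Cdh5 below 0 and Calcrl above 0. The count of members at least 1.5-fold higher was 1, but 0 with the median over passing probe sets and 0 without _s_at and _x_at probe sets, since the Egfl7 ratio of 0.75 became 0.08 there. The log2 ratio of Cdh5 was 0.09, but -0.25 with the median over its probe sets, and that of Calcrl ranged from -0.09 to 0.11. The median of the other endothelial genes lay between -0.05 and 0.03. MOE430B alone gave no value for the members, because its single Calcrl probe set did not pass. Without replicates, only the 100 shared probe sets and repeated probe sets of a gene give a spread. No paired analysis was possible because each group holds 1 array.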

Other observations

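Genes that tell kinds of vessel apart did not lean one way. Of 19 measured genes of capillary, arterial, venous and lymphatic endothelium, the dKO-labelled arrays read 10 higher, with a median log2 ratio of 0.05. At least 1.5-fold higher were 3 genes, Efnb2, an arterial ephrin ligand (0.80, and 0.34 by its other probe set), Nr2f2 (0.70) and Slc6a2, a noradrenaline transporter (0.73, and -0.29 by its other probe set). At least 1.5-fold lower were 2 genes, Cxcr4, a chemokine receptor that lymphocytes also carry (-0.81, with 847.6 in the dKO-labelled array and 1486 in the WT-labelled array), and Prox1, the regulator of lymphatic endothelium (-0.66). Efnb2, Cxcr4 and Prox1 were named after their values were seen. Prox1 passed the filter of 862.2 on MOE430B through the WT-labelled array alone, with 701.9 in the dKO-labelled array and 1110 in the WT-labelled array. The other lymphatic genes lay within the SD of a single ratio, with Lyve1 at -0.19 (-0.35 by its other probe set), Mmrn1 at -0.22, Reln at -0.06, Pdpn at 0.05 and Flt4 at 0.07. Of the markers of the thin capillary cells of gas exchange, Car4 had 0.47, but it passed the filter of 791.5 through the dKO-labelled array alone, with 970.7 there and 703.0 in the WT-labelled array. Fibin had 0.29, Tbx2 0.17, Ednrb 0.12 (with -0.31 to 0.12 over 3 probe sets) and Apln -0.03, of which the last 3 lay within the SD of a single ratio. The genes of these cells, Reln, Pdpn and Flt4 were also named after their values were seen.

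Of 10 measured pericyte markers, 6 were higher, with a median of 0.01. Pdgfrb, the PDGF receptor of mural cells and fibroblasts, had the highest ratio at 0.93, while Rgs5, a regulator of G protein signalling in pericytes, had -0.39, with -0.60 to 0.40 over 4 probe sets.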
